A study of Homo sapiens with 5 samples.

Results

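The 10 alpha- and beta-tubulin genes TUBA1A, TUBA1B, TUBA1C, TUBB, TUBB2A, TUBB2B, TUBB3, TUBB4A, TUBB4B and TUBB6 were chosen by gene symbol, 3 alpha and 7 beta genes among 26364 symbols, and all 10 had a value other than 0 in all 5 libraries. The cells were SH-SY5Y (catalogue name CRL-2266), an established human neuroblastoma line that takes on neuron-like traits under retinoic acid. siSTAU1 and siUPF1 cells had been given an siRNA against STAU1 or UPF1, and siControl cells a control siRNA, all in medium with 10% serum and 1% antibiotics. Differentiation and Nondifferentiation cells are both labelled with the same medium plus 50 μM retinoic acid, so by the growth label alone they do not differ, and the groups follow the sample titles. Each group was 1 library of 3' ends (Lexogen QuantSeq, from 500 ng of total RNA), and no doses of siRNA or times are labelled. A single library stands for each group, so no difference can be checked against replicates and no p-value is given.

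Alpha- and beta-tubulin form the dimers from which microtubules are built. Vertebrates carry several genes of each, called isotypes, whose proteins differ mainly in their acidic tails. TUBA1A, TUBB2B and TUBB3 are the isotypes best known from developing neurons, and mutations in each disturb brain development. Cells also regulate their own tubulin mRNAs: when free dimers are in excess, TTC5 recognises the first residues of a tubulin as it leaves the ribosome and, through SCAPER and the CCR4-NOT deadenylase, the mRNA is degraded. STAU1, a double-stranded RNA-binding protein, and UPF1, a helicase, act in another pathway, Staufen-mediated decay, and the design asked for transcripts that go up when either protein is depleted and also go up in differentiating cells.

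The start of the coding sequence is shown because it encodes the residues read in that autoregulation. At the protein level it is the same within the alpha genes and within the beta genes. It was read from the GENCODE 29 principal transcript of each gene, 5′ to 3′, with the start codon in lower case and codons 2 to 4 in capitals.
TUBA1A: atgCGTGAGTGC
TUBA1B: atgCGTGAGTGC
TUBA1C: atgCGTGAGTGC
TUBB: atgAGGGAAATC
TUBB2A: atgCGCGAGATC
TUBB2B: atgCGTGAGATC
TUBB3: atgAGGGAGATC
TUBB4A: atgCGGGAGATC
TUBB4B: atgAGGGAAATC
TUBB6: atgAGGGAGATC
In all 3 alpha genes the capitals read arginine, glutamate, cysteine, and in all 7 beta genes they read arginine, glutamate, isoleucine. The codons differed among the beta genes, while the 3 alpha genes had the same 12 bases. TUBA1A, TUBA1B and TUBA1C lie on chromosome 12, TUBB, TUBB2A and TUBB2B on chromosome 6, TUBB3 on chromosome 16, TUBB4A on chromosome 19, TUBB4B on chromosome 9 and TUBB6 on chromosome 18.

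The values were log2 expression values in which the 5 libraries had been given nearly the same distribution, with the highest value at 18.01 in each. The step between the smallest values gives an approximate value of 1 read in each library, from 0.682 on the linear scale in Differentiation to 1.18 in siControl. If that step held at all levels, the depth would be about 16.9 M reads in siSTAU1, 18.8 M in siUPF1, 16.6 M in siControl, 28.6 M in Differentiation and 18.9 M in Nondifferentiation. Values given the same distribution need not keep that step at higher levels, so depths, read counts and counting SEs are rough. STAU1 had a log2 fold of -1.52 in siSTAU1 and UPF1 of -1.53 in siUPF1, each against siControl, while in Differentiation against Nondifferentiation they had -0.01 and 0.07. The 10 neuroblastoma markers (DBH, TH and others) were above 0 in every library, with a median log2 value between 10.71 and 12.19. Of the 8 glial markers 4 were listed at 0 in each library, and so were 3 of 6 blood markers, PTPRC among them each time, while HBB had a log2 fold of 1.07 in Differentiation against Nondifferentiation. Most epithelial markers had higher values in siSTAU1 than in siControl, a count with no background of comparable genes, as described with TUBA1C. In these bulk samples, fewer cells of a type and less RNA per cell cannot be told apart.

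Tubulin mRNAs were among the most abundant in these cells, and the isotypes differed widely in level. A 3' end value does not scale with transcript length, so levels of different genes can be set side by side. TUBB, the ubiquitous beta-tubulin, had the highest log2 value of all genes in siSTAU1, siControl and Nondifferentiation, at 18.01, while it ranked 2 in siUPF1, at 17.70, and 3 in Differentiation, at 17.39. Because every library was given the same set of values, TUBB could only take the value of its rank: its difference is 0.00 wherever it ranks 1 in both libraries, and its other differences are gaps between the top ranks rather than a free measure of its level. TUBA1A, the main alpha-tubulin of young neurons, ranked between 12 and 28, and TUBA1B, a ubiquitous alpha-tubulin, between 51 and 329. At the other end, TUBA1C, a broadly expressed alpha-tubulin, had log2 values from 6.60 to 8.98, and TUBB4A, a brain isotype linked to dystonia and myelin disease, from 7.47 to 8.16.

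The order of levels was the same in siSTAU1, siUPF1, siControl and Nondifferentiation. From high to low the alpha genes ran TUBA1A, TUBA1B, TUBA1C, and the beta genes TUBB, TUBB2B, TUBB6, TUBB3, TUBB4B, TUBB2A, TUBB4A. In Differentiation the alpha order was the same, but TUBB3 stood level with TUBB6, at log2 values of 12.49 and 12.48, a gap of 0.01 with a counting SE of 0.0223. There TUBB2A, at 9.88, also lay above TUBB4B, at 9.37. TUBB3 and TUBB6 in Differentiation were the only neighbours in any of the 5 libraries whose gap lay within 95% counting error. The spread between cultures is unknown.

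**Figure D1:**
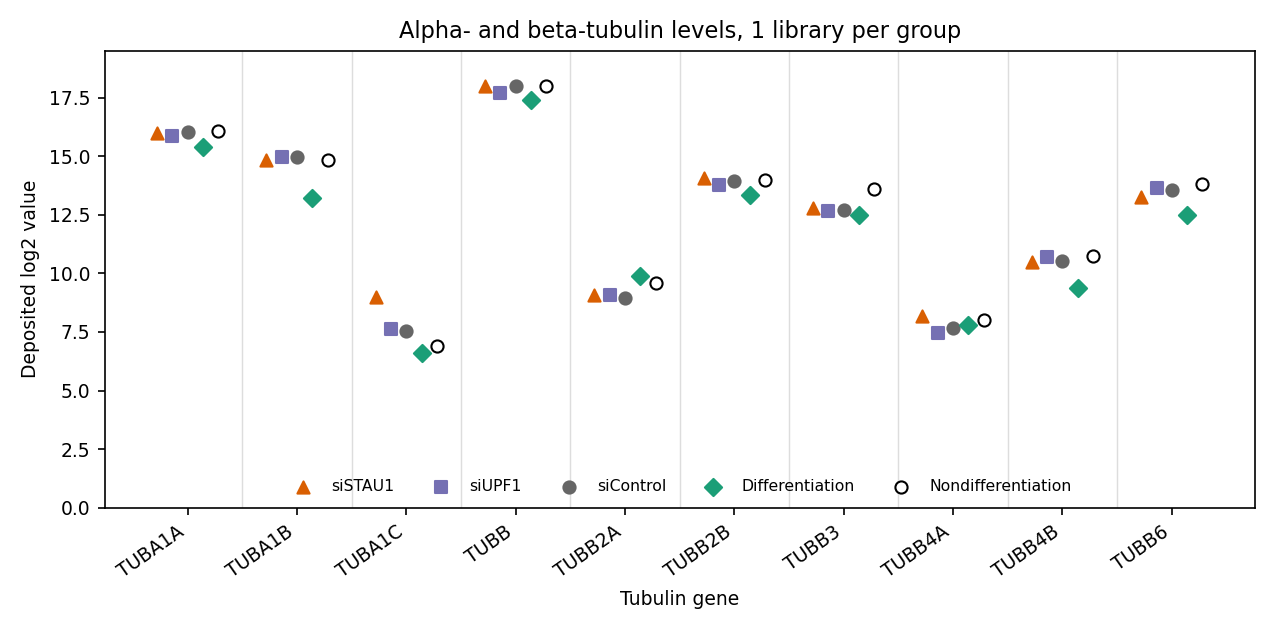
Deposited log2 values (y axis) of the 10 tubulin genes (x axis) in the 5 libraries, 1 point per library. Most genes have 5 points close together, while TUBA1C is highest in siSTAU1, at 8.98, and TUBA1B is lowest in Differentiation, at 13.20.

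Differentiation against Nondifferentiation was the comparison in which the tubulins moved most, and the movement was downward. TUBA1B, TUBB3, TUBB4B and TUBB6 were at least 2-fold lower and no tubulin was 2-fold higher. A negative log2 fold was found in 9 of the 10 genes, TUBA1C below the measured level among them, and in 49.1% of all measured genes. A gene counted as measured when its larger value reached the median of the nonzero values of the pair, here a log2 value of 7.76, and as lower or higher at a 2-fold difference. By that rule 9 of the 10 tubulins were measured, 4 were lower, 0 were higher and 5 were neither, whereas over all 9064 measured genes 10.9% were lower and 10.4% were higher. The median log2 fold was -0.66 over the 10 tubulins and 0.02 over all measured genes. These values are relative to the common distribution: the 73 cytosolic ribosomal protein genes had a median of -0.60, and with that median set to 0 only TUBA1B was still 2-fold lower, the median of the 10 was -0.06, and TUBA1C and TUBB4A turned positive, at 0.30 and 0.38.

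TUBA1B had a log2 value of 13.20 in Differentiation, against 14.84 in Nondifferentiation, 14.95 in siControl, 14.84 in siSTAU1 and 14.97 in siUPF1. It was low in Differentiation alone, and its log2 fold of -1.63 is 3.10-fold lower (counting SE 0.015). TUBB4B, a broadly expressed beta-tubulin also used in cilia, had 9.37 in Differentiation, against 10.74 in Nondifferentiation, 10.51 in siControl, 10.49 in siSTAU1 and 10.69 in siUPF1. Its log2 fold was -1.36, or 2.57-fold lower (counting SE 0.0583), a value it may share with the overlapping gene FAM166A described at the end. TUBB6, a beta-tubulin known mainly from cells other than neurons, had 12.48 in Differentiation, against 13.82 in Nondifferentiation, 13.55 in siControl, 13.26 in siSTAU1 and 13.64 in siUPF1. Its log2 fold was -1.34, or 2.54-fold lower (counting SE 0.0199). Differentiation held the lowest of the 5 values for these 3 genes, and also for TUBA1A, TUBA1C, TUBB, TUBB2B and TUBB3. Only these 3 genes were at least 2-fold lower in Differentiation against both Nondifferentiation and siControl.

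TUBB3, whose protein is the most used marker of neurons, did not follow that pattern. It had a log2 value of 12.49 in Differentiation, against 13.61 in Nondifferentiation, a log2 fold of -1.11 and 2.17-fold lower (counting SE 0.0205). In the siRNA libraries it had 12.77 in siSTAU1, 12.65 in siUPF1 and 12.70 in siControl. Nondifferentiation was thus the library that stood apart, and against siControl the log2 fold of TUBB3 in Differentiation was only -0.21. With siControl in place of Nondifferentiation 3 of 8 measured tubulins were 2-fold lower, TUBA1B at -1.75, TUBB4B at -1.14 and TUBB6 at -1.07, where 12.3% of all measured genes were lower.

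The other abundant isotypes fell short of 2-fold. TUBA1A had a log2 value of 15.38 in Differentiation and 16.07 in Nondifferentiation, a log2 fold of -0.69. TUBB2B, a neuronal beta-tubulin, had 13.36 in Differentiation and 14.00 in Nondifferentiation, a log2 fold of -0.64. TUBB had -0.61, within the limit set by its rank. TUBB4A had 7.78 in Differentiation and 8.0 in Nondifferentiation, a log2 fold of -0.22 with a counting SE of 0.122, and TUBA1C, below the measured level in this pair, had 6.60 and 6.90 in the same libraries.

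TUBB2A, the neighbour and close relative of TUBB2B, was the only tubulin with a positive log2 fold in this pair. Its log2 value was 9.88 in Differentiation, against 9.61 in Nondifferentiation, 8.95 in siControl, 9.09 in siSTAU1 and 9.08 in siUPF1. The log2 fold was 0.27 against Nondifferentiation (counting SE 0.0652) and 0.92 against siControl, both under 2-fold.

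**Figure D2:**
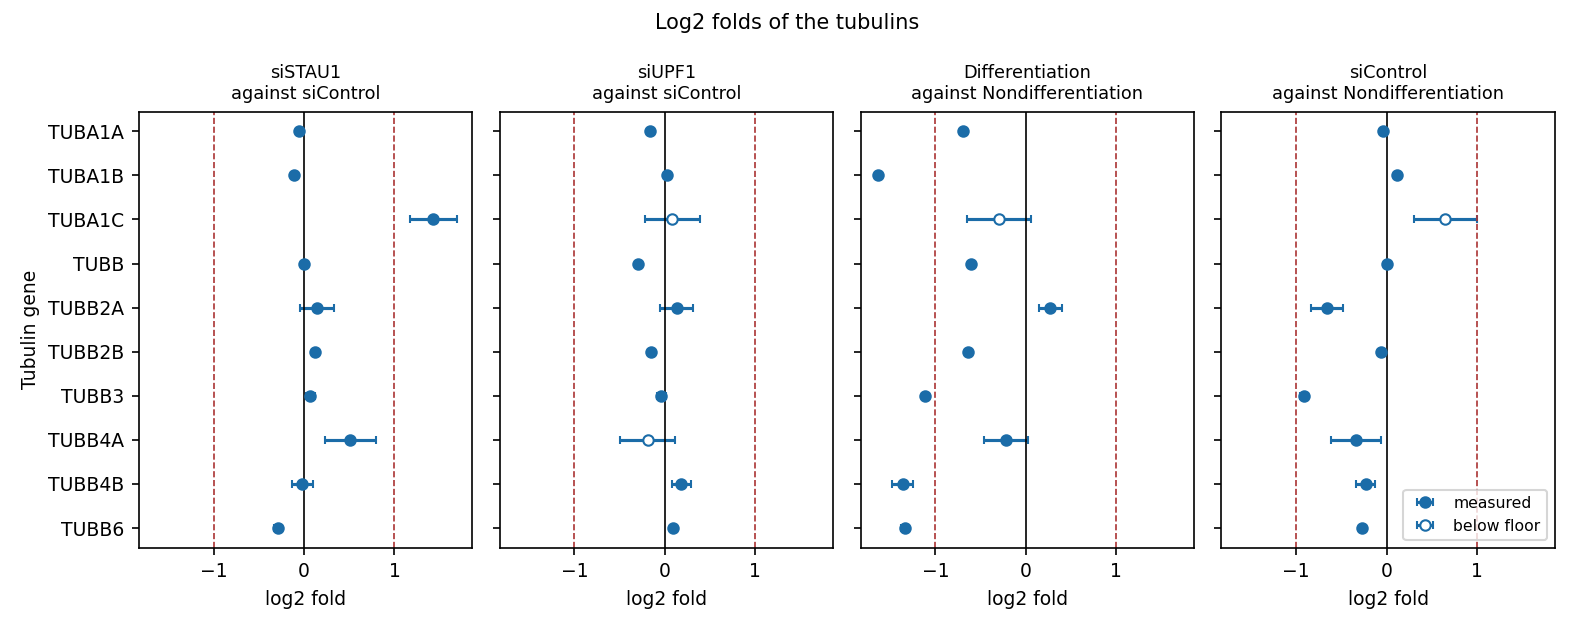
Log2 folds (x axis) of the 10 tubulins (y axis) in 4 comparisons, with bars of 95% counting error that do not cover the spread between cultures; open points lie below the measured level and dashed lines mark 2-fold. TUBA1C passes 2-fold in siSTAU1, and TUBA1B, TUBB3, TUBB4B and TUBB6 do so in Differentiation.

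The isotype make-up differed too. The summed linear value of the 3 alpha genes had a log2 fold of -0.91 in Differentiation against Nondifferentiation, and that of the 7 beta genes -0.66. TUBB, bound to its rank, dominates the beta sum, and without it the log2 fold of that sum was -0.95. TUBA1A made up 81.7% of the alpha sum in Differentiation, against 70% in Nondifferentiation and 65% to 68.3% in the siRNA libraries. TUBA1B made up 18.1% in Differentiation and 29.9% in Nondifferentiation. TUBB made up 85.1% to 87.9% of the beta sum in all 5 libraries. Of the beta sum without TUBB, TUBB2B held 44.2% in Differentiation and 35.5% in Nondifferentiation, TUBB3 24.2% and 27.1%, and TUBB6 24% and 31.5%, in the same order. TUBB2A held 3.95% in Differentiation and 1.7% in Nondifferentiation. A share does not depend on a scaling that multiplies all values of a library alike. Giving every library the same set of values is not such a scaling, so the shares also rest on that step. The siControl shares of TUBB2B and TUBB3, 43.1% and 18.2%, lay away from those of Nondifferentiation.

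**Figure D3:**
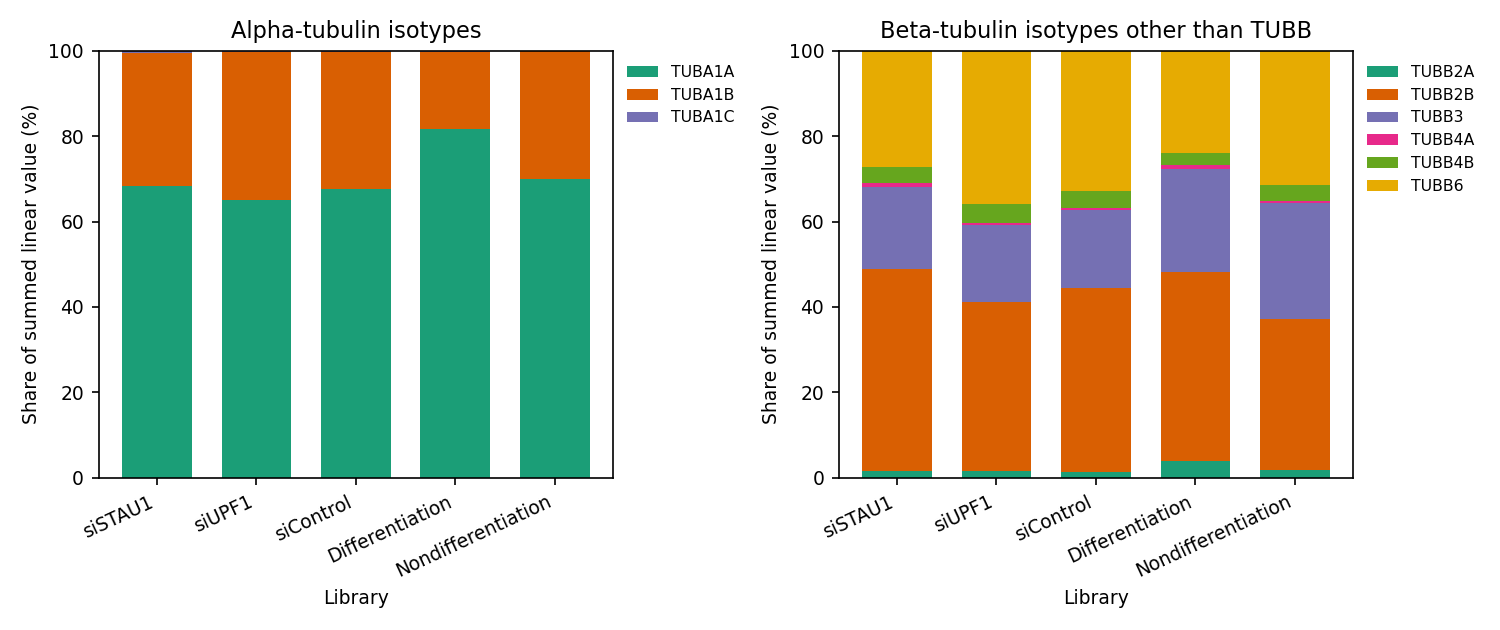
Share of the summed linear value (y axis, percent) held by each isotype in the 5 libraries (x axis), for the alpha genes on the left and the beta genes other than TUBB on the right. TUBA1A takes 81.7% of the alpha sum in Differentiation and 65% to 70% in the other libraries.

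Around the tubulins, most genes of folding and nucleation stayed within 2-fold in Differentiation against Nondifferentiation, and modifying enzymes went both ways. The counts stand beside 10.9% of all measured genes lower and 10.4% higher. All 8 subunits of CCT, the chaperonin that folds nascent tubulin and actin, had negative log2 folds with a median of -0.89, and 2 were 2-fold lower, TCP1 at -1.37 and CCT5 at -1.22. Of 13 folding cofactors and prefoldin subunits 2 were lower, PFDN4 at -1.06 and PFDN6 at -1.02, and 1 was higher, TBCEL at 1.04, with a median of -0.40. In the gamma-tubulin ring complex, which nucleates microtubules, 9 of 12 genes were measured and 2 were lower, MZT1 at -1.58 and TUBG1 at -1.18. For the cofactors these counts are near the shares over all genes. With the ribosomal median of -0.60 set to 0, none of these 6 genes was 2-fold lower, the medians were -0.29 for CCT, 0.20 for the cofactors and 0.04 for the ring complex, and PFDN5 joined TBCEL among the higher genes.

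Of 27 genes of tubulin modifying enzymes 24 were in the files and 12 were measured, with 3 higher, 2 lower and a median of 0.54, beside 10.4% higher and 10.9% lower over all measured genes. TTLL3, a tubulin glycylase, had 1.99, AGTPBP1, which removes glutamates from tubulin tails and is mutated in a mouse with Purkinje cell loss, had 1.43, and HDAC6, a tubulin deacetylase, had 1.04. TTLL12 had -1.74 and TTLL4, a tubulin glutamylase, had -1.39. Under the ribosomal centring 7 of the 12 were higher and 1, TTLL12, was lower, with a median of 1.14, where 29.8% of all measured genes were higher and 4.60% lower. Of 7 autoregulation genes 6 were measured and 0 passed 2-fold, with TTC5 at 0.07 and SCAPER at 0.35. Of 7 severing genes 5 were measured and 0 passed 2-fold, FIGNL1 having the lowest value at -0.89 and KATNAL1 the highest at 0.12. Of the other tubulin genes only TUBD1, at -0.06, and TUBG1 were measured.

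Proliferation genes moved in the same comparison, where 10.9% of all measured genes were lower and 10.4% higher. The part of proliferation genes in the tubulin values was not tested. All 10 genes of that list, such as MKI67 at -1.82 and CCNB1 at -3.26, were 2-fold lower in Differentiation than in Nondifferentiation, with a median of -2.19, and all 10 stayed so under the ribosomal centring. Of 10 neuronal genes 6 were measured, and SNAP25, a protein of vesicle fusion, at 2.29 and DCX, which binds microtubules in migrating neurons, at 1.93 were higher, while MAP2, the dendritic microtubule protein, had -0.64. Markers of cell identity moved as well, and their part was not tested either. Of 9 measured neuroblastoma markers TH, at -3.23, ISL1 and DBH were lower and CHGA, at 1.60, was higher, and of 5 measured mesenchymal markers TAGLN, at -1.65, and VIM were lower and PDGFRB, at 2.38, and FN1 were higher. The summed linear value of the 10 mesenchymal markers was 105347 in Differentiation and 51677 in Nondifferentiation, most of it FN1, at log2 values of 16.63 in Differentiation and 15.45 in Nondifferentiation. The median log2 value of that list was 6.29 in Differentiation and 6.98 in Nondifferentiation.

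**Figure D4:**
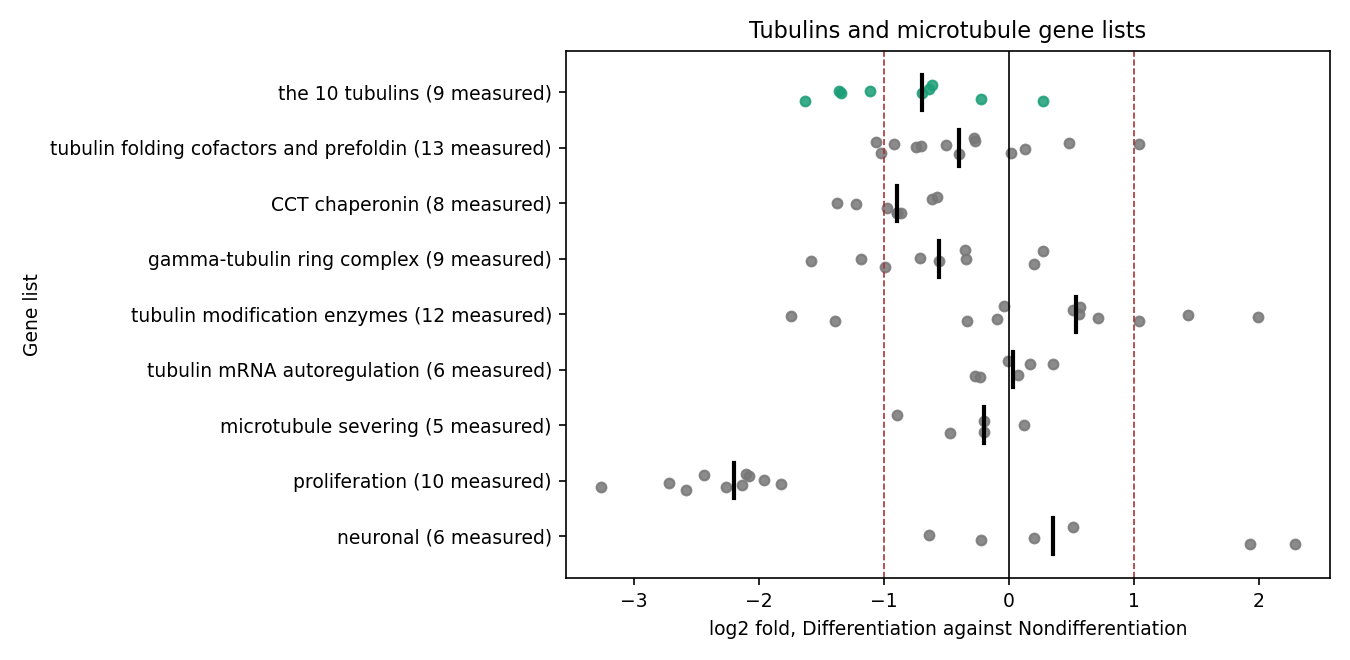
Log2 folds in Differentiation against Nondifferentiation (x axis) of the measured genes of each list (y axis), 1 point per gene, with the median as a black bar and 2-fold as dashed lines. The measured tubulins, with a median of -0.69, lie between the folding cofactors and the CCT subunits, well above the proliferation genes.

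In the promoters of the tubulins, motifs were looked for because TUBA1B, TUBB4B and TUBB6 were each lower in Differentiation than in the other 4 libraries. That also held for TUBA1A, TUBA1C, TUBB, TUBB2B and TUBB3, so it does not set those genes apart. The windows of 250 bases before each RefSeq start (GRCh38.p14, another build than that of the files, used for sequence only) are shown for TUBA1B and TUBB4B, which had the lowest log2 folds, and for TUBB2A and TUBB2B, neighbours whose folds differed in sign. Capitals mark the CCAAT box, the TTTGAA element and the GC box GGGCGG on either strand, and in these 4 windows matches to different motifs do not overlap.
TUBA1B, chr12:49131396-49131645, minus strand: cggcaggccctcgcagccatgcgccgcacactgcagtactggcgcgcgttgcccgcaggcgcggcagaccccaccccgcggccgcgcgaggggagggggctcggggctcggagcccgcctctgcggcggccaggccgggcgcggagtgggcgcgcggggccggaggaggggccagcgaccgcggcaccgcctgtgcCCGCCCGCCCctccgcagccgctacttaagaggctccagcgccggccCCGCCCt
TUBB4B, chr9:137241037-137241286, plus strand: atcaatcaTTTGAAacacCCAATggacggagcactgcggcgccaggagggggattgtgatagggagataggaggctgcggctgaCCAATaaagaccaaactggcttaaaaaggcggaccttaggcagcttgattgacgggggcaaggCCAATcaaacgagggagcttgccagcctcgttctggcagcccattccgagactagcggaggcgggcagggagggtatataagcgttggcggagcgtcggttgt
TUBB2A, chr6:3157545-3157794, minus strand: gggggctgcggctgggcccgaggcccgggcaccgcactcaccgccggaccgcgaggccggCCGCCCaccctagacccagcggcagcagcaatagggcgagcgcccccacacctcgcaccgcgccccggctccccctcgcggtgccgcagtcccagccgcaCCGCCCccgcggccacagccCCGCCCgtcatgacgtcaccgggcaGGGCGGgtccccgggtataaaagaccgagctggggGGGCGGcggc
TUBB2B, chr6:3227654-3227903, minus strand: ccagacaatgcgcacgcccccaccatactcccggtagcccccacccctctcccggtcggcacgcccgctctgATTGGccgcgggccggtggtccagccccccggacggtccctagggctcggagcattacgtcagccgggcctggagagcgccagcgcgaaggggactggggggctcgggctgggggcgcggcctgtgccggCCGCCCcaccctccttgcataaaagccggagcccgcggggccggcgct
CCAAT is the box bound by NF-Y, TTTGAA is a form of the element found in promoters of cell cycle genes, and the GC box is bound by Sp1 and its relatives. TUBB4B had 3 CCAAT boxes, 1 TTTGAA and no GC box, whereas TUBA1B had 3 GC boxes and neither of the others. TUBB2A had 5 GC boxes and no CCAAT box, and TUBB2B had 1 CCAAT box and 1 GC box. TUBB3 and TUBB6 have 2 windows each, 1 of which held none of the motifs, while the other held 1 CCAAT box with 3 GC boxes in TUBB3 and 6 in TUBB6. The 10 genes had 16 start windows, 10 of which held CCAAT, 9 GGGCGG and 3 TTTGAA, the last in TUBA1C and TUBB4B only. Some windows of TUBA1C overlap and hold the same CCAAT box, so that box is counted more than once. Of all 35116 windows of that length 32% held CCAAT, 42.6% GGGCGG and 13.3% TTTGAA. The windows of TUBB2A and TUBB2B had the same base at 36.4% of positions when set side by side without gaps. A match is a description of the letters and not a bound site.

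Knockdown of STAU1 left all but 1 of the tubulins within 2-fold. In siSTAU1 against siControl all 10 tubulins were measured, 1 was higher, 0 were lower and 9 were neither, where 0.0946% of 8454 genes were higher and 0.106% lower. The median log2 fold of the 10 was 0.04, beside 0.01 over all measured genes. TUBA1C, the gene that was higher, had a log2 value of 8.98 in siSTAU1, against 7.64 in siUPF1, 7.56 in siControl, 6.60 in Differentiation and 6.90 in Nondifferentiation. It was high in siSTAU1 alone, with a log2 fold of 1.43 and a counting SE of 0.133, from about 437 reads in siSTAU1 and 160 in siControl. It counted as measured through siSTAU1 alone, and with the floor at the upper quartile of the nonzero values it was no longer measured and 0 tubulins were higher. Against Nondifferentiation the log2 fold was 2.08, where 0.281% of genes were higher. Even so TUBA1C held only 0.539% of the alpha sum in siSTAU1 and 0.191% in siControl, and the alpha sum had a log2 fold of -0.07.

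Most markers of an epithelial list had higher values in siSTAU1 than in siControl, nearly all of them below the measured level. Their part in the value of TUBA1C was not tested. Of 10 such markers 1, CLDN7, reached the measured level, at a log2 fold of -0.20. By value alone 8 of the 10 were higher in siSTAU1 than in siControl. The share of all genes below the measured level that were higher was not computed, so this count has no background. Among measured genes 48.9% had a negative log2 fold. Without a floor 4.56% of 15386 genes were 2-fold higher and 4.64% were lower. The list's summed linear value was 1100 in siSTAU1, against 637 in siControl, 605 in siUPF1, 504 in Differentiation and 596 in Nondifferentiation. KRT8 had a log2 value of 7.53 in siSTAU1 and 2.49 in siControl, and KRT18 had 7.56 in siSTAU1 and 2.49 in siControl. No marker of the list was listed at 0 in siSTAU1, while CDH1, CLDN4, ESRP1 and ELF3 were in siControl. The median log2 value of the list was 5.23 in siSTAU1 and 1.37 in siControl. It was also higher in Differentiation, at 3.07, than in Nondifferentiation, at 0.13, and in Differentiation only CLDN3 was listed at 0.

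Next in size was TUBB4A, with a log2 value of 8.16 in siSTAU1 and 7.66 in siControl, a log2 fold of 0.51 (counting SE 0.143). TUBB6 had 13.26 in siSTAU1 and 13.55 in siControl, a log2 fold of -0.29. The remaining 7 log2 folds lay between -0.11, for TUBA1B, and 0.14, for TUBB2A. The folding, chaperonin, nucleation, modification, autoregulation and severing lists had medians between -0.08 and 0.04 and no gene past 2-fold. HDAC6, at -0.61, and PFDN6, at -0.58, had the lowest log2 folds in them. Outside them DCX, in the neuronal list, had 1.11, and TAGLN, in the mesenchymal list, had -1.63.

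Knockdown of UPF1 took no tubulin past 2-fold. In siUPF1 against siControl 8 tubulins were measured, with 0 higher and 0 lower, where 0.401% of 8475 genes were higher and 0.142% lower, so a count of 0 is near that background. The 10 log2 folds ran from -0.30, for TUBB at rank 2 in siUPF1 and rank 1 in siControl, to 0.18, for TUBB4B, with a median of -0.01. TUBA1A had 15.87 in siUPF1 and 16.03 in siControl, a log2 fold of -0.16, and TUBB2B had 13.79 in siUPF1 and 13.94 in siControl, a log2 fold of -0.15. TUBA1C and TUBB4A were below the measured level, with log2 folds of 0.08 and -0.19. TAGLN had 1.52 in this comparison. In the microtubule lists no gene passed 2-fold, and the medians lay between -0.19, for the autoregulation genes, and -0.01, for the severing genes.

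No tubulin met the design's question in these libraries. TUBB2A alone had a positive log2 fold in siSTAU1 (0.14), in siUPF1 (0.13) and in Differentiation (0.27), each short of 2-fold, and the first 2 of these share siControl. With Nondifferentiation as the reference for the knockdowns TUBB2A had -0.52 in siSTAU1 and -0.53 in siUPF1. Under the ribosomal centring TUBA1C too was positive, at 1.43 in siSTAU1, 0.21 in siUPF1 and 0.30 in Differentiation. In siUPF1 and in Differentiation it was below the measured level. Over all genes 1 was 2-fold higher in all 3 comparisons.

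The distance between siControl and Nondifferentiation, both without knockdown, gives a scale for these values, although their labels differ in siRNA and in retinoic acid. Of 9 measured tubulins 0 were 2-fold higher or lower in siControl against Nondifferentiation, where 0.222% of 8547 genes were higher and 0.573% lower. Among the neuroblastoma markers TH, at -2.13, and DBH, at -1.12, were lower. TUBB3 had -0.91, TUBB2A -0.66 and TUBA1C, below the measured level here, 0.65, and the other 7 log2 folds lay between -0.34 and 0.11. The log2 folds of TUBB4A in siSTAU1 and of TUBA1A and TUBB2B in Differentiation were smaller in size than the -0.91 of TUBB3. They were larger than the same genes' own distances here, -0.34 for TUBB4A, -0.04 for TUBA1A and -0.06 for TUBB2B. Those of TUBA1B, TUBB3, TUBB4B and TUBB6 in Differentiation were larger in size than -0.91. Against siControl, Differentiation had -0.65 for TUBA1A, -0.58 for TUBB2B and -0.21 for TUBB3. Differentiation and siControl were both set against the same Nondifferentiation library, in which TUBB3 was highest.

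Genes with profiles most like those of the 3 most variable tubulins were found by the largest difference over the 5 libraries after each gene was centred on its own mean. Only genes measured in all 4 comparisons were searched. For TUBA1B the nearest of 8209 genes were POLR2C, a subunit of RNA polymerase II, at 0.06, and TTLL12 and DBF4, the activator of a replication kinase, both at 0.07. For TUBA1C the nearest of 8210 genes were MID1 at 0.65, LMO3 at 0.73 and TFAP4 at 0.73, so none of the genes compared came closer to it than 0.65. TUBA1C was itself not measured in every comparison, and genes that failed that rule were left out of the search. For TUBB4B the nearest were FAM166A at 0.02, COBLL1 at 0.04 and VIM at 0.07.

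FAM166A is annotated opposite TUBB4B and overlaps its 3' end. It had a log2 value of 9.27 in Differentiation, against 10.65 in Nondifferentiation, 10.38 in siControl, 10.38 in siSTAU1 and 10.59 in siUPF1, between 0.08 and 0.13 below TUBB4B in every library. Its log2 fold in Differentiation was -1.38, beside -1.36 for TUBB4B. Whether reads were counted by strand is not stated in the labels, and without that, reads of both genes cannot be told apart. Of the last 300 bases of the 10 transcripts, words of 50 bases were also compared with all other GENCODE 29 genes. TUBA1C, TUBB, TUBB2B and TUBB6 shared 0 of 251 words with any other gene on either strand. On the same strand TUBA1A shared 37 words, TUBA1B 35, TUBB2A 53 and TUBB4B 18, with tubulin genes, the pseudogene TUBAP2 or AC092143.1, while 246 of the words of TUBB3 lie in AC092143.1, an annotated gene that overlaps it. Counting both strands, TUBA1B shared 251 words, TUBB4A 195 and TUBB4B 93. Genes on the opposite strand were among those sharing them, and for TUBB4A they were the only ones. AC011603.2, on the opposite strand, also shared words with TUBA1A. In this respect alone, values of TUBA1A, TUBA1B, TUBB2A, TUBB3, TUBB4A and TUBB4B are less certain than those of the other 4. Among the latter, TUBA1C is limited by few reads, about 116 in Nondifferentiation, and TUBB by its rank.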

How the data were processed

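RNA of 5 SH-SY5Y libraries was measured by 3' end sequencing, per the labels' protocols. The values deposited by the authors are log2 expression values. Bowtie2, edgeR and hg19 appear, with no role or version, per the submitters' processing notes. The labels give no counter, annotation or strand setting. The common maximum and quartiles are those of quantile normalization, an inference from the values, which removes differences in total RNA. Log2 folds are differences of deposited values, with no pseudocount. The floor was 7.84 for both knockdowns against siControl, 7.76 for Differentiation against Nondifferentiation and 7.81 for siControl against Nondifferentiation. No test was possible with 1 library per group. Reads were estimated from the spacing of the lowest distinct linear values, and counting SEs cover counting error only. Both assume that this spacing holds at higher values, which was not tested. All 10 tubulins are named; from lists, genes past 2-fold where a list had 5 or fewer, and some of the 2 highest and 2 lowest. TTC5 was named for its role. The members and lists were chosen with earlier results of these data known. Calculations used Python 3.11.15, numpy 2.4.6 and pandas 2.3.3, tested on simulated data.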

Additional observations from a re-analysis of the deposited data

How the results depend on the processing

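With 1 library per group no setting says how cultures vary, and depth limits TUBA1C and TUBB4A most, whose counting SE reached 0.18 and 0.156. The count of 2-fold calls and the median of the 10 tubulins were recomputed without a floor, with a floor at the upper quartile, with a pseudocount of 10, with a threshold of 1.5-fold, with 2 centrings and with another reference; siControl as the reference for Differentiation was chosen after seeing the data. The higher floor removed TUBA1C and left 0 higher in siSTAU1. At 1.5-fold 7 tubulins were lower in Differentiation, where 21.7% of measured genes were, and 2 in siControl against Nondifferentiation, where 3.21% were. Centring on ribosomal protein genes left 1 lower in Differentiation, with a median of -0.06 and a split over all genes of 29.8% higher and 4.60% lower, and made 1, TUBB3, lower in siControl against Nondifferentiation. In siControl against Nondifferentiation that centring gave a median of -0.24, and in siUPF1 0.11. With Nondifferentiation as the reference the median was -0.05 in siSTAU1 and -0.20 in siUPF1. The other 117 recomputed counts, medians and isotype shares stayed within 1.5 times the count, within the members' median 95% counting error for medians, and within the Wilson interval for shares. Of 150 recomputed log2 folds of single tubulins 53 moved beyond counting error and 9 changed sign. None of the log2 folds that changed sign had been past 2-fold in its comparison. Against Nondifferentiation TUBB3 had -0.83 in siSTAU1, and TUBB4B had -0.05 and TUBB6 -0.18 in siUPF1. TUBB3 had 0.08 in siUPF1 under the ribosomal centring, and TUBB4A had 0.12 in Differentiation against siControl. The other 4, of TUBA1C, TUBB2A and TUBB4A, are given above. No paired analysis was possible because each group has 1 library.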
